A study of Mus musculus with 4 samples.

Results

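The genes described here are 43 genes of the unfolded protein response of the endoplasmic reticulum (ER) and of the integrated stress response, chosen by symbol from the 47729 genes of a table of tumor RNA. They comprise the stress sensors with XBP1, transcription factors and effectors of the integrated stress response, enzymes of serine, one-carbon and asparagine synthesis, ER chaperones, oxidative folding enzymes and genes of ER-associated degradation. RNA came from tumors that Lewis lung carcinoma (LLC) cells, a mouse lung cancer line of C57BL/6 origin, had formed under the skin of the back of C57BL/6 mice aged 6 to 10 weeks, and was taken on day 5. In LLC-Chem tumors the grafted cells carried a pEFIN plasmid for chemerin, residues 1 to 157, while in LLC tumors they did not. This form is active without further clipping at its C-terminus, and the study's text does not name its species. Each group held 2 pools of 3 tumors, that is, 4 RNA libraries and 6 tumors per group. The labels call the control cells wild type, whereas the study's text also describes cells with the empty vector. Transfected cells were picked as clones after drug selection, so a difference between clones and an effect of chemerin cannot be told apart. The hosts of both groups kept their own chemerin gene, and bulk tumor RNA holds host cells beside tumor cells.

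Values are given as RPM, the reads of a gene when a pool is scaled to a total of 1000000, in the order of pool 1 and pool 2 of each group. They come from libraries whose fitted totals ran from 28470000 to 33990000 reads, at which 3 reads correspond to 0.0883 to 0.105 RPM, a limit that covers counting error only. Rarres2, the mouse gene that encodes chemerin, measured 102 and 98.2 RPM in LLC, and 106 and 106 RPM in LLC-Chem (adjusted p = 0.541 by limma). The directions given here therefore rest on the labels and not on the level of the transfected gene. Whether reads of the plasmid count toward Rarres2 was not tested. Cell markers also moved between the groups. Of the 8 leukocyte and macrophage markers 5 fell, as did 5 of 6 neutrophil and monocyte markers and 5 of 6 endothelial markers, and none rose. Over all 13694 genes tested by limma, 13.5% were called lower and 9.54% higher, and the marker counts stand beside these shares. The count of leukocyte and macrophage markers called lower was 3 of 8 with edgeR and 6 of 8 with DESeq2. The leukocyte and macrophage markers summed to 3854 and 6855 RPM in LLC, and 3117 and 1527 RPM in LLC-Chem, the neutrophil and monocyte markers to 427 and 295 RPM in LLC, and 117 and 63.2 RPM in LLC-Chem, and the endothelial markers to 214 and 185 RPM in LLC, and 60.8 and 35.5 RPM in LLC-Chem. Of 6 fibroblast markers 1 rose and 2 fell, and 7 of 10 textbook targets of hypoxia rose (summed level 3367 and 3216 RPM in LLC, and 4992 and 4522 RPM in LLC-Chem). Pdk1, Adm and Ndrg1 of these targets are also among the hypoxia genes that the study named as higher in the same samples. They are therefore not independent of its result. Of the 5 plasma cell markers 3 could be tested, and none was called (0 by limma, 0 by edgeR, 0 by DESeq2 and 0 at an unadjusted p under 0.05). Adipocyte markers gave 1 higher call among 3 tested of 4, and skeletal muscle markers 1 higher call in the 1 tested of 5, with Ckm and Myh4 at 0 in every pool. Of the 4 keratinocyte markers 1 could be tested (0 calls by limma, 0 by edgeR, 0 by DESeq2 and 1 at an unadjusted p under 0.05). The part of these markers in the results on the stress genes was not tested, and fewer cells of a type and less RNA per cell cannot be told apart in these libraries.

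Misfolded protein in the ER is sensed by IRE1, PERK and ATF6. IRE1 splices the mRNA of XBP1, ATF6 is cut to release a transcription factor, and both raise chaperones, oxidative folding enzymes and the degradation machinery of the ER. PERK, like the kinases that sense amino acid shortage, heme and viral RNA, phosphorylates eIF2, which slows translation but favors that of ATF4, a factor that turns on amino acid synthesis, amino acid transport and tRNA charging. In tumors both arms are known to respond to fast secretion, poor blood supply and lack of nutrients.

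Of the 43 genes 42 reached a mean of 1 RPM and were tested with limma. The difference of LLC-Chem minus LLC was positive and passed an adjusted p under 0.05 for 4 of them (Ero1l, Dnajb9, Ddit4 and Syvn1), where 9.54% of all 13694 genes tested were called higher. It was negative and passed for 7 (Psat1, Vldlr, Phgdh, Atf3, Asns, Shmt2 and Sesn2), where 13.5% of all genes tested were called lower. Read against these shares, the 4 and 7 calls among 42 genes are not a result about the whole group, and its median log2 fold change of -0.05 was close to the -0.04 of all genes tested. Of the 7 genes that fell, 4 are enzymes of serine, one-carbon and asparagine synthesis and the other 3 belong to the integrated stress response, whereas 3 of the 4 that rose act in the ER lumen or membrane. Both LLC-Chem pools lay above both LLC pools for 12 of the 43 genes and below them for 18, and the pools overlapped for 13. Over all genes tested, 33.1% lay wholly above and 39.3% wholly below. Each of these 11 calls was lost when any 1 of the 4 pools was left out (0 calls by limma over all genes each time, with 9 to 19 of the genes at an unadjusted p under 0.05), although each of the 11 kept its sign. Testing all 26260 genes above 0 in any pool also left 0 calls among the 43 by limma (17 at an unadjusted p under 0.05, and 0.00381% of all genes called higher). Without a mean-variance trend limma left 2 higher and 4 lower, with Ddit4, Syvn1, Sesn2, Asns and Phgdh no longer called, beside 6.51% and 9.28% of all genes. With 2 pools against 2, an exact permutation test of a single gene cannot go below p = 0.33, and limma instead draws on the spread of all genes.

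**Figure D1:**
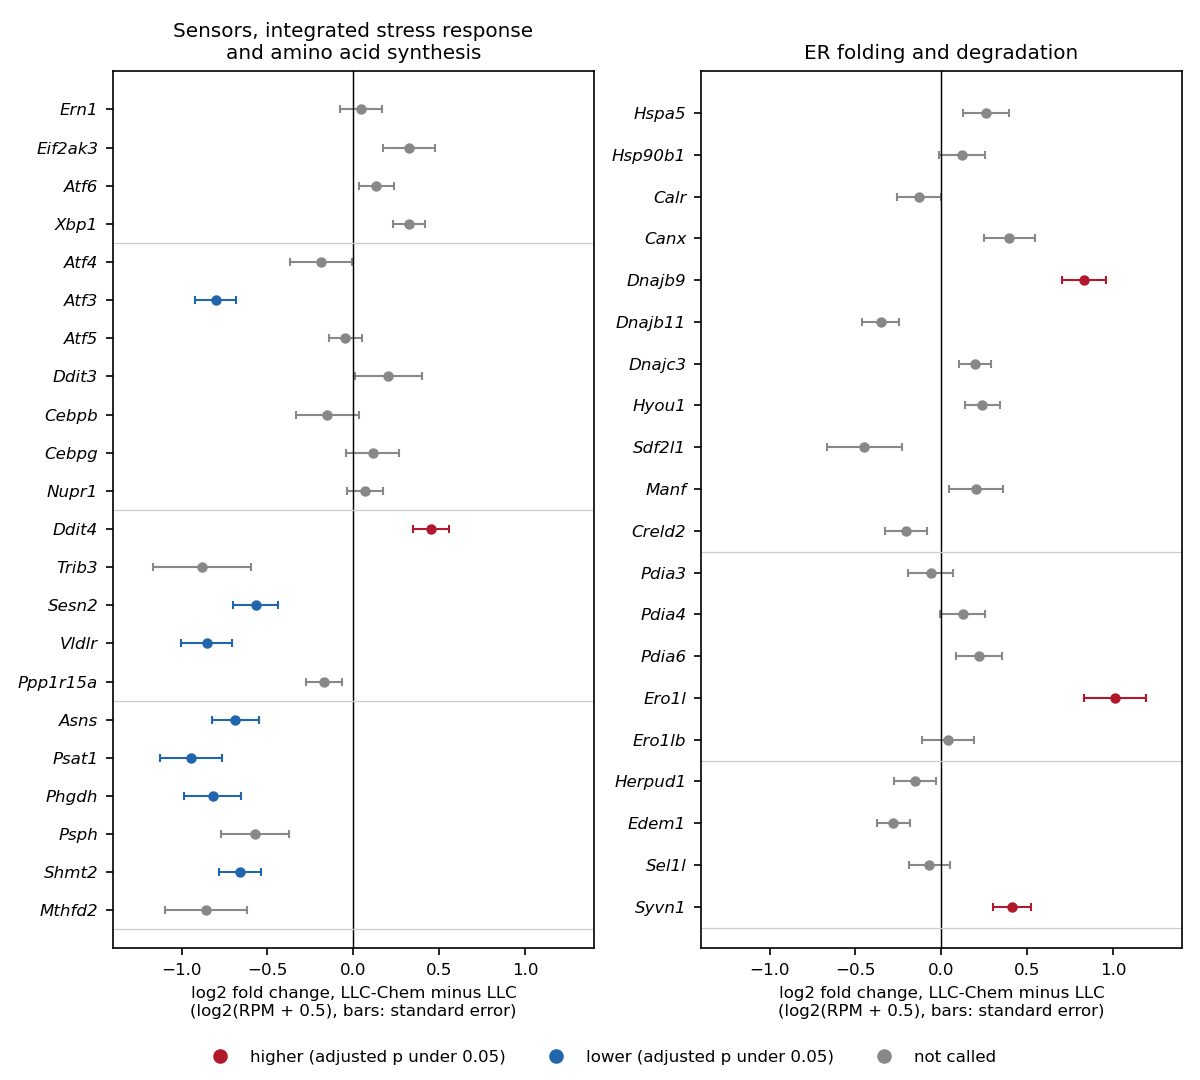
Log2 fold change (LLC-Chem minus LLC, on log2(RPM + 0.5)) of the 42 genes tested, with the standard error as bars and genes grouped by role between grey lines. The 6 synthesis enzymes at the lower left all lie left of 0, from -0.94 to -0.57, while the ER folding genes on the right lie on both sides, with Ero1l at 1.01 and Dnajb9 at 0.83 farthest from 0.

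Of the 6 enzymes of serine, one-carbon and asparagine synthesis 4 fell, beside 13.5% of all genes tested. Both LLC-Chem pools lay below both LLC pools for 6 of the 6, beside 39.3% of all genes tested, and the median log2 fold change was -0.75 against -0.04 over all genes. These are descriptions of the list. Their summed level was 660.4 and 527 RPM in LLC, and 376 and 311 RPM in LLC-Chem. Psat1 (ENSMUSG00000024640, chr19:15904678-15947337, minus strand), the aminotransferase that carries out the middle step of serine synthesis from a glycolytic intermediate, fell most. It measured 156 and 124 RPM in LLC, and 83.3 and 62.5 RPM in LLC-Chem, that is, 140.2 ± 22.8 RPM (SD, n = 2) in LLC and 72.9 ± 14.7 RPM (SD, n = 2) in LLC-Chem (log2 fold change -0.94 ± 0.18 SE, adjusted p = 0.0258), so that LLC-Chem tumors held 52% of the level in LLC tumors. Phgdh (ENSMUSG00000053398, chr3:98313170-98339990, minus strand), which commits glycolytic carbon to serine, measured 154 and 126 RPM in LLC, and 89.7 and 69.4 RPM in LLC-Chem (log2 fold change -0.82 ± 0.17 SE, adjusted p = 0.028), a call lost without the trend (adjusted p = 0.053). Its value is uncertain because 47.8% of its 50-base words also occur in the pseudogene Gm7901, with which it could share reads. Psph, the phosphatase of the last step, measured 16.8 and 12.2 RPM in LLC, and 9.74 and 9.2 RPM in LLC-Chem and did not pass (adjusted p = 0.0881), with the pools again apart.

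The remaining enzymes of the list followed the same direction. Shmt2 (ENSMUSG00000025403, chr10:127517123-127522444, minus strand), the mitochondrial enzyme that turns serine into glycine and a one-carbon unit, measured 167 and 142 RPM in LLC, and 102 and 92.6 RPM in LLC-Chem (log2 fold change -0.66 ± 0.12 SE, adjusted p = 0.0239). Mthfd2, the mitochondrial folate enzyme of the next step, measured 73.4 and 48.2 RPM in LLC, and 37.4 and 28.3 RPM in LLC-Chem, and missed the threshold (log2 fold change -0.86, adjusted p = 0.0527), though it passed with DESeq2 (adjusted p = 0.00613). The LLC pools of Mthfd2 differed from each other nearly as much as the group means did, and its standard error was 0.24. Asns (ENSMUSG00000029752, chr6:7675169-7693254, minus strand), which makes asparagine from aspartate and glutamine and is a classical target of ATF4, measured 92.6 and 74.4 RPM in LLC, and 53.5 and 49.2 RPM in LLC-Chem (log2 fold change -0.69 ± 0.14 SE, adjusted p = 0.027), and was not called without the trend (adjusted p = 0.0518). In each of these 6 genes pool 1 exceeded pool 2 within both groups, where 57.9% of all genes tested did so in LLC and 51.6% in LLC-Chem. Leaving out each pool in turn, the log2 fold change ranged from -1.15 to -0.74 for Psat1, from -0.78 to -0.54 for Shmt2 and from -0.84 to -0.53 for Asns.

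Among the 7 transcription factors of the integrated stress response, Atf3 alone passed the test, beside 13.5% of all genes called lower, and both LLC-Chem pools lay below both LLC pools for 2 of the 7, beside 39.3% of all genes tested. Atf4 (ENSMUSG00000042406), the factor that the enzymes above respond to, measured 423 and 299 RPM in LLC, and 316 and 308 RPM in LLC-Chem (log2 fold change -0.19 ± 0.18 SE, adjusted p = 0.455). The LLC-Chem pools lay between the 2 LLC pools, and without LLC pool 1 the difference turned to 0.06. ATF4 is controlled mainly at translation, which RNA levels do not show. Atf3 (ENSMUSG00000026628, chr1:191170296-191218039, minus strand), a stress-induced factor downstream of ATF4, measured 36.8 and 39.3 RPM in LLC, and 22.4 and 20.9 RPM in LLC-Chem, or 38.1 ± 1.77 RPM (SD, n = 2) in LLC and 21.7 ± 1.1 RPM (SD, n = 2) in LLC-Chem (log2 fold change -0.80 ± 0.12 SE, adjusted p = 0.0158). The pools of each group agreed closely and the groups were well apart, so LLC-Chem tumors held 56.9% of the LLC level.

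The remaining factors showed no call. Ddit3, which encodes CHOP, the factor tied to death under lasting ER stress, measured 21.4 and 15 RPM in LLC, and 21.5 and 19.99 RPM in LLC-Chem (log2 fold change 0.20, adjusted p = 0.463). LLC pool 1 lay at the level of the LLC-Chem pools and LLC pool 2 below them. Atf5, Cebpb, Cebpg and Nupr1 had log2 fold changes of -0.05, -0.15, 0.11 and 0.07, with adjusted p-values from 0.561 to 0.733, and their pools overlapped except for Atf5, whose LLC-Chem pools lay below. Of the exon bases of Cebpb 20.7% lie under Tmem189, where reads can be shared or dropped.

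The effectors of the integrated stress response split. Both LLC-Chem pools lay below both LLC pools for 5 of the 6, beside 39.3% of all genes tested, and those of Ddit4 lay above. Vldlr (ENSMUSG00000024924, chr19:27216484-27254231, plus strand), a lipoprotein receptor that PERK and ATF4 are known to raise, measured 28.2 and 31.2 RPM in LLC, and 17.7 and 14.8 RPM in LLC-Chem (log2 fold change -0.85 ± 0.15 SE, adjusted p = 0.0209). Sesn2 (ENSMUSG00000028893, chr4:132492032-132510501, minus strand), a leucine sensor that restrains the growth kinase mTORC1, measured 37.4 and 34.9 RPM in LLC, and 26.1 and 22.4 RPM in LLC-Chem (log2 fold change -0.57 ± 0.13 SE, adjusted p = 0.036), and lost its call without the trend (adjusted p = 0.0558). In both genes the 2 groups stood apart by more than the distance between their pools.

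Trib3, a pseudokinase that feeds back on ATF4, measured 14.8 and 8.9 RPM in LLC, and 6.9 and 5.25 RPM in LLC-Chem (log2 fold change -0.88, adjusted p = 0.0751), and passed with DESeq2 (adjusted p = 0.029). The LLC pools differed from each other by more than the LLC-Chem pools did. Chac1, which degrades glutathione and is a target of ATF4 and CHOP, measured 1.5 and 1.2 RPM in LLC, and 0.600 and 0.15 RPM in LLC-Chem. Its mean lay under 1 RPM, so it was not tested, but its 4 pools did not overlap and the LLC-Chem mean was 27.8% of the LLC mean. Ppp1r15a, which encodes GADD34, the subunit that directs a phosphatase to eIF2 and so ends the response, had non-overlapping lower pools and was not called (log2 fold change -0.17, adjusted p = 0.271). Ddit4 (ENSMUSG00000020108, chr10:59949669-59951834, minus strand), which encodes REDD1, an inhibitor of mTORC1 that is induced both by ATF4 and by hypoxia, rose. It measured 66 and 59.6 RPM in LLC, and 88 and 84.1 RPM in LLC-Chem (log2 fold change 0.45 ± 0.10 SE, adjusted p = 0.0355), and the call did not hold without the trend (adjusted p = 0.0698). For all 10 of the hypoxia targets both LLC-Chem pools lay above both LLC pools, beside 33.1% of all genes tested, and their median log2 fold change was 0.86. The part of hypoxia in the level of Ddit4 was not tested.

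**Figure D2:**
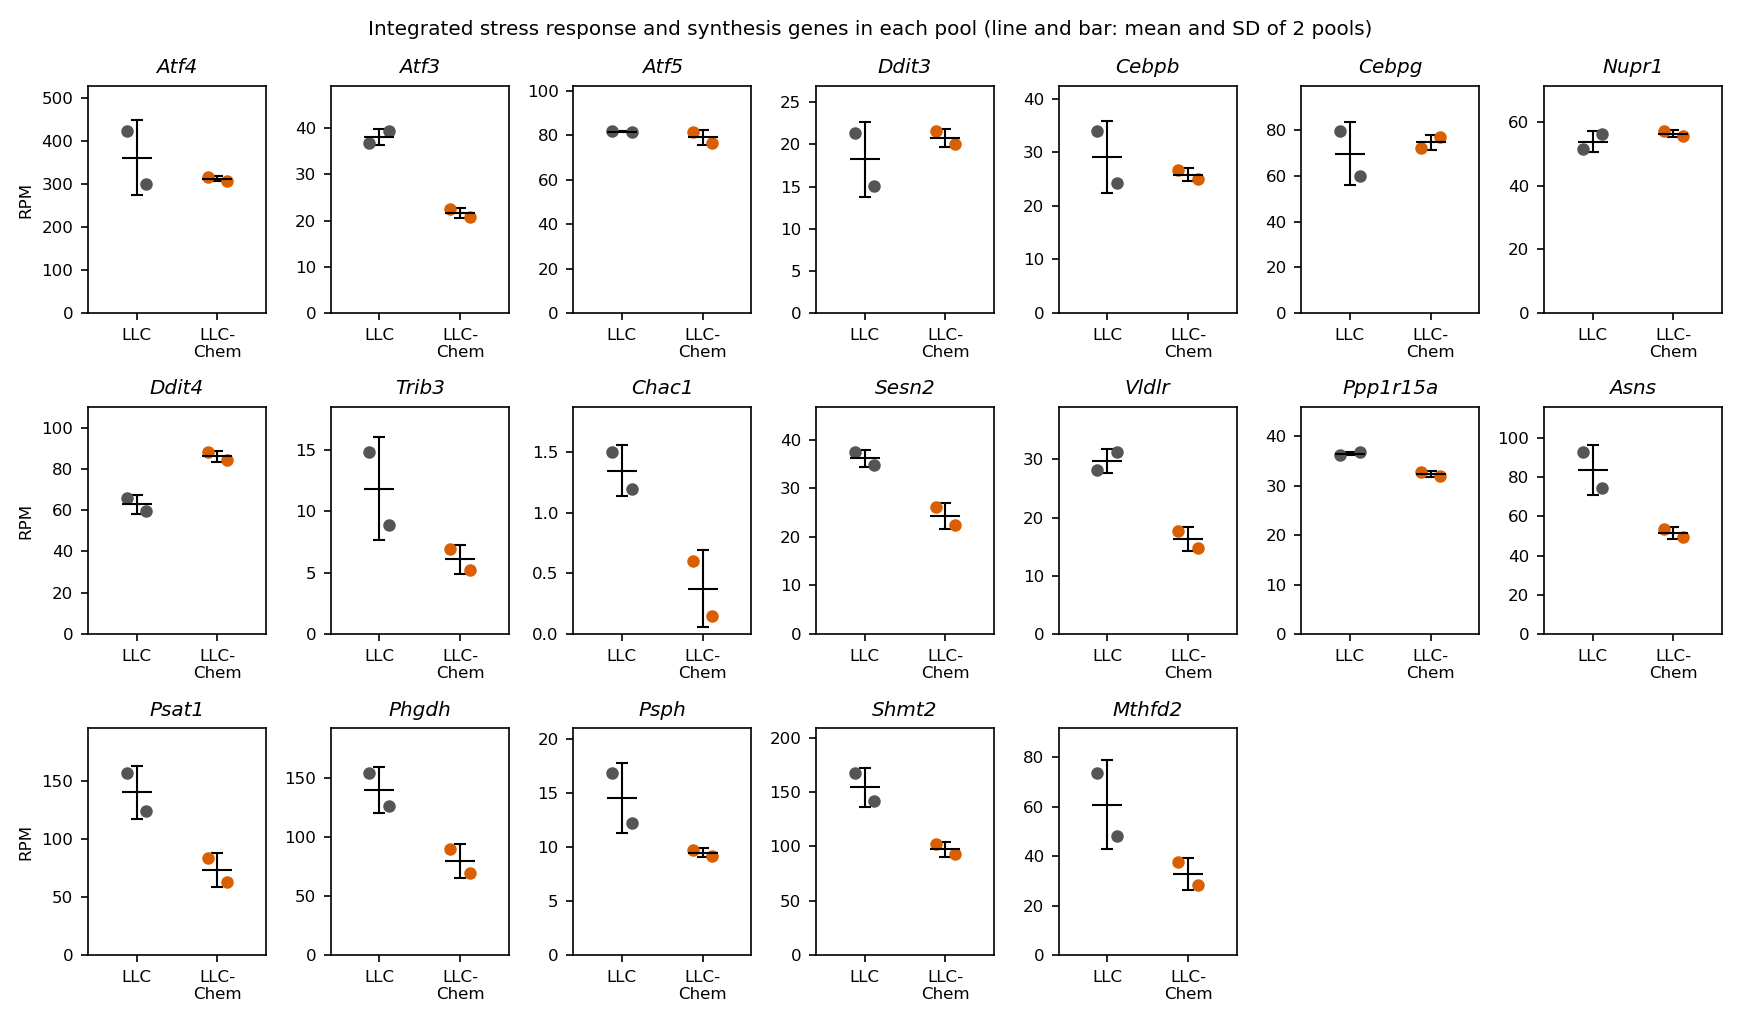
RPM of the 19 genes of the integrated stress response and of serine, one-carbon and asparagine synthesis in each pool (points), with the mean and SD of the 2 pools of each group as line and bar, and axes starting at 0. Both LLC-Chem pools lie below both LLC pools for the 6 enzymes, for 5 of the 6 effectors and for 2 of the 7 transcription factors, beside 39.3% of all genes tested, those of Ddit4 lie above, and those of the other 5 factors, Atf4 among them, overlap with LLC.

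The promoters of the genes were then searched for the C/EBP-ATF response element (CARE), the sequence that ATF4 binds with a C/EBP partner. RefSeq promoters of GRCm38.p6, 250 bases before to 50 bases after the start, were present for 40 of the 43 genes and for 32851 genes in all. On both strands the letters TGATGNAA occurred in 7 of the 40 promoters (17.5%), against 3.97% of all promoters. Of these 7 genes, Asns, Atf3 and Vldlr fell, Trib3 and Chac1 had non-overlapping lower pools without a call, and the pools of Herpud1 and Nupr1 overlapped. The 7 matches are shown with 10 bases on each side and the element in capitals, 5′ to 3′ on the strand given, and differ within the element only at the position that the search left free, which is C in 5 of the 7.
Asns, chr6:7693215-7693242, minus strand: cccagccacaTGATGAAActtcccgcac
Atf3, chr1:191183426-191183453, plus strand: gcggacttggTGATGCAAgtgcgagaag
Chac1, chr2:119351039-119351066, minus strand: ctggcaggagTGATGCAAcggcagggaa
Herpud1, chr8:94386307-94386334, minus strand: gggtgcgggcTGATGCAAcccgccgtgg
Nupr1, chr7:126625563-126625590, plus strand: aagccctgtcTGATGCAAtctggccctt
Trib3, chr2:152344029-152344056, plus strand: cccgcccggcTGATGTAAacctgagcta
Vldlr, chr19:27216810-27216837, minus strand: ctaggagcgcTGATGCAActattgctgc

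The element of Asns lies 23 to 16 bases before the RefSeq start, and those of Atf3 and Nupr1 both lie 110 to 103 bases before it. The match in Trib3 lies after the start, at bases 14 to 21. With 20 bases on each side, the windows of Asns, Nupr1 and Trib3 touch an untranslated region of a GENCODE M21 transcript, that of Vldlr touches a noncoding exon of Vldlr, that of Atf3 lies in an intron of a longer Atf3 transcript, that of Herpud1 lies in an intron of the neighboring Gm15890, and that of Chac1 lies outside any gene. Psat1, Phgdh, Shmt2 and Sesn2, which fell as well, held no match in this window. Over the 273 other tested genes whose promoter held the element, 58 (21.2%) were called lower and 24 (8.79%) higher, with a median log2 fold change of -0.13, whereas of the 9950 tested genes with a promoter 13.6% were called lower and 9.75% higher. These shares are descriptions, and a match is not evidence of binding. The list was chosen partly as known targets of ATF4 and CHOP, so its higher share of CARE than over all promoters is not a finding.

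**Figure D3:**
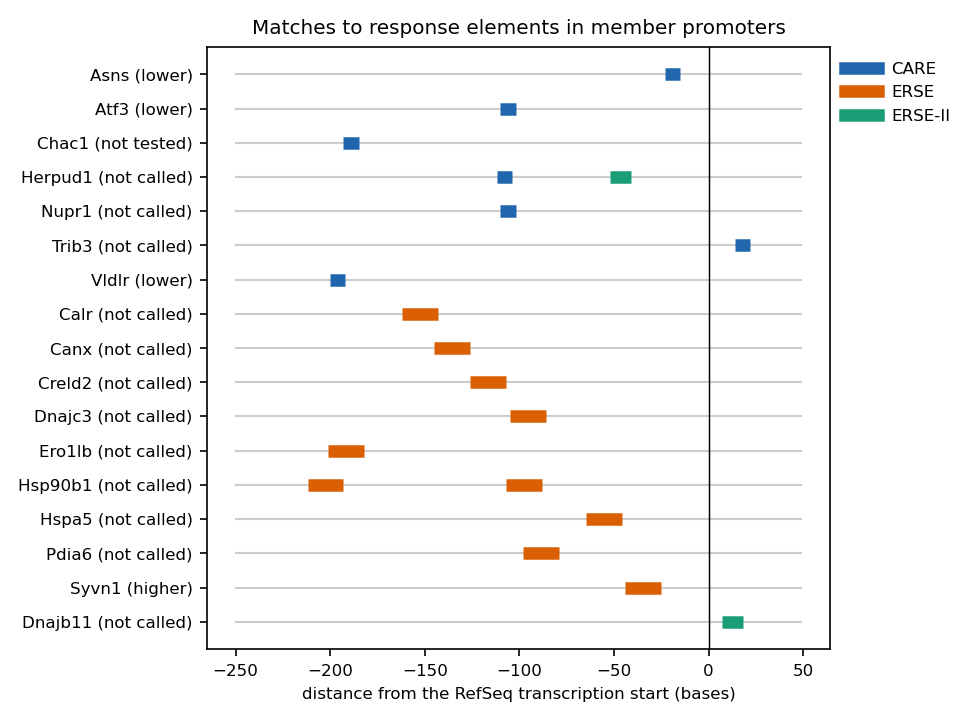
Positions of matches to CARE (blue), the ER stress element ERSE (orange) and ERSE-II (green) in the promoters of 17 of the genes, in bases from the RefSeq transcription start (black line), with the call of each gene in brackets. Of the 7 genes with CARE 3 fell, Asns, Atf3 and Vldlr, beside 13.6% of the tested genes with a promoter called lower. Of the 9 genes with ERSE only Syvn1 rose, a share near the 9.75% of the tested genes with a promoter called higher.

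The sensors of ER stress and XBP1 had positive log2 fold changes in 4 of 4 genes, but none passed the test (0 of 4 by limma, 1 of 4 at an unadjusted p under 0.05, 1 by edgeR and 1 by DESeq2, each time Xbp1). Xbp1, whose spliced mRNA encodes the main factor of secretory capacity, measured 189 and 185 RPM in LLC, and 233 and 235 RPM in LLC-Chem (log2 fold change 0.32 ± 0.09 SE, adjusted p = 0.0565). Its pools lay close together within each group, and the 2 groups did not overlap. Xbp1 passed with TMM scaling (adjusted p = 0.0384), with edgeR (0.0497) and with DESeq2 (0.0119). The counts per gene do not separate the spliced from the unspliced form. Eif2ak3, which encodes PERK, measured 33.3 and 43.6 RPM in LLC, and 48.6 and 47.1 RPM in LLC-Chem (adjusted p = 0.166), and Atf6 came to 0.13 on the log2 scale (adjusted p = 0.353). Ern1, which encodes IRE1, measured 89 and 79.5 RPM in LLC, and 80.2 and 94 RPM in LLC-Chem, and its pools overlapped.

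The ER chaperones had log2 fold changes of both signs around a median log2 fold change of 0.19, and 1 of 11 passed, a share near the 9.54% of all genes called higher. Dnajb9 (ENSMUSG00000014905, chr12:44205559-44210326, minus strand), a cochaperone of BiP that holds IRE1 in check and is a known target of XBP1, rose. It measured 38 and 31.7 RPM in LLC, and 60.2 and 64.1 RPM in LLC-Chem, or 34.9 ± 4.45 RPM (SD, n = 2) in LLC and 62.1 ± 2.79 RPM (SD, n = 2) in LLC-Chem (log2 fold change 0.83 ± 0.13 SE, adjusted p = 0.017). The LLC-Chem level was 178% of the LLC level, the largest ratio among the 11 chaperones. Hspa5, which encodes BiP, the Hsp70 of the ER and the usual reporter of ER stress, measured 886 and 791 RPM in LLC, and 984 and 1019 RPM in LLC-Chem (log2 fold change 0.26 ± 0.14 SE, adjusted p = 0.204). Canx, the membrane-bound lectin chaperone calnexin, measured 638 and 519 RPM in LLC, and 738 and 776 RPM in LLC-Chem (log2 fold change 0.40, adjusted p = 0.102). In both genes all LLC-Chem pools lay above the LLC pools, but neither difference passed the test, and Canx passed with DESeq2 (adjusted p = 0.0197).

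Dnajc3 (log2 fold change 0.19), a cochaperone that also inhibits PERK, and Hyou1 (0.24), the large Hsp70-related chaperone GRP170, likewise had non-overlapping higher pools without a call. On the other side, Dnajb11, a further BiP cochaperone, measured 122 and 113 RPM in LLC, and 97.1 and 87.3 RPM in LLC-Chem (log2 fold change -0.35, adjusted p = 0.063). Sdf2l1, the partner of Dnajb11, came to -0.45 on the log2 scale (adjusted p = 0.175), and Calr, the soluble lectin chaperone calreticulin, to -0.13. Both cochaperones thus lay on the opposite side of 0 from Dnajb9, with pools that did not overlap. Creld2 (-0.21) likewise had non-overlapping lower pools without a call. The pools of Manf (0.20) and of Hsp90b1 (0.12), which encodes GRP94, overlapped. Hsp90b1 has 15.7% of its exon bases under other genes.

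Of the 5 oxidative folding enzymes 1 was called, beside 9.54% of all genes called higher, and it is 1 of the 2 ER oxidases. Ero1l (ENSMUSG00000021831, chr14:45283087-45318771, minus strand), which encodes ERO1α, the oxidase that recharges protein disulfide isomerase and is also induced by hypoxia, rose most of the 43 genes. It measured 194 and 145 RPM in LLC, and 374 and 306 RPM in LLC-Chem, or 169.6 ± 35.2 RPM (SD, n = 2) in LLC and 339.7 ± 48.3 RPM (SD, n = 2) in LLC-Chem (log2 fold change 1.01 ± 0.18 SE, adjusted p = 0.0223), so that the LLC-Chem level was 200.3% of the LLC level. The study's own list of hypoxia genes, chosen on these samples, holds Ero1l, so its rise is not independent evidence of that direction. Ero1lb, the paralog ERO1β of strongly secretory cells, measured 15.7 and 13.6 RPM in LLC, and 15.7 and 14.4 RPM in LLC-Chem (log2 fold change 0.04, adjusted p = 0.86). The ratio of Ero1l to Ero1lb in RPM was 12.4 and 10.6 in LLC, and 23.8 and 21.2 in LLC-Chem, with no overlap. An exact permutation test on this ratio cannot go below p = 0.33, and the ratio restates the levels given above without adding evidence. The disulfide isomerases that these oxidases serve showed no call, with log2 fold changes of -0.06 for Pdia3, 0.12 for Pdia4 and 0.22 for Pdia6, of which only Pdia6 had pools that did not overlap.

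Of the 4 genes of ER-associated degradation, Syvn1 (ENSMUSG00000024807, chr19:6046576-6053712, plus strand), which encodes the ubiquitin ligase HRD1, rose. It was the one call among the 4, beside 9.54% of all genes called higher, and measured 83.6 and 73.6 RPM in LLC, and 102 and 107 RPM in LLC-Chem (log2 fold change 0.41 ± 0.11 SE, adjusted p = 0.0472). Without the trend it was not called (adjusted p = 0.0879). Sel1l, the adaptor of the same ligase, measured 128 and 149 RPM in LLC, and 138 and 125 RPM in LLC-Chem, with overlapping pools, and Herpud1, which organizes the complex, measured 49 and 52.3 RPM in LLC, and 49.2 and 42.1 RPM in LLC-Chem. Edem1, a lectin that marks misfolded glycoproteins for this route and a known target of XBP1, pointed the other way at 167 and 163 against 142 and 130.3 RPM in LLC and LLC-Chem (log2 fold change -0.28, adjusted p = 0.0908). Its pools did not overlap, but it did not pass. 

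**Figure D4:**
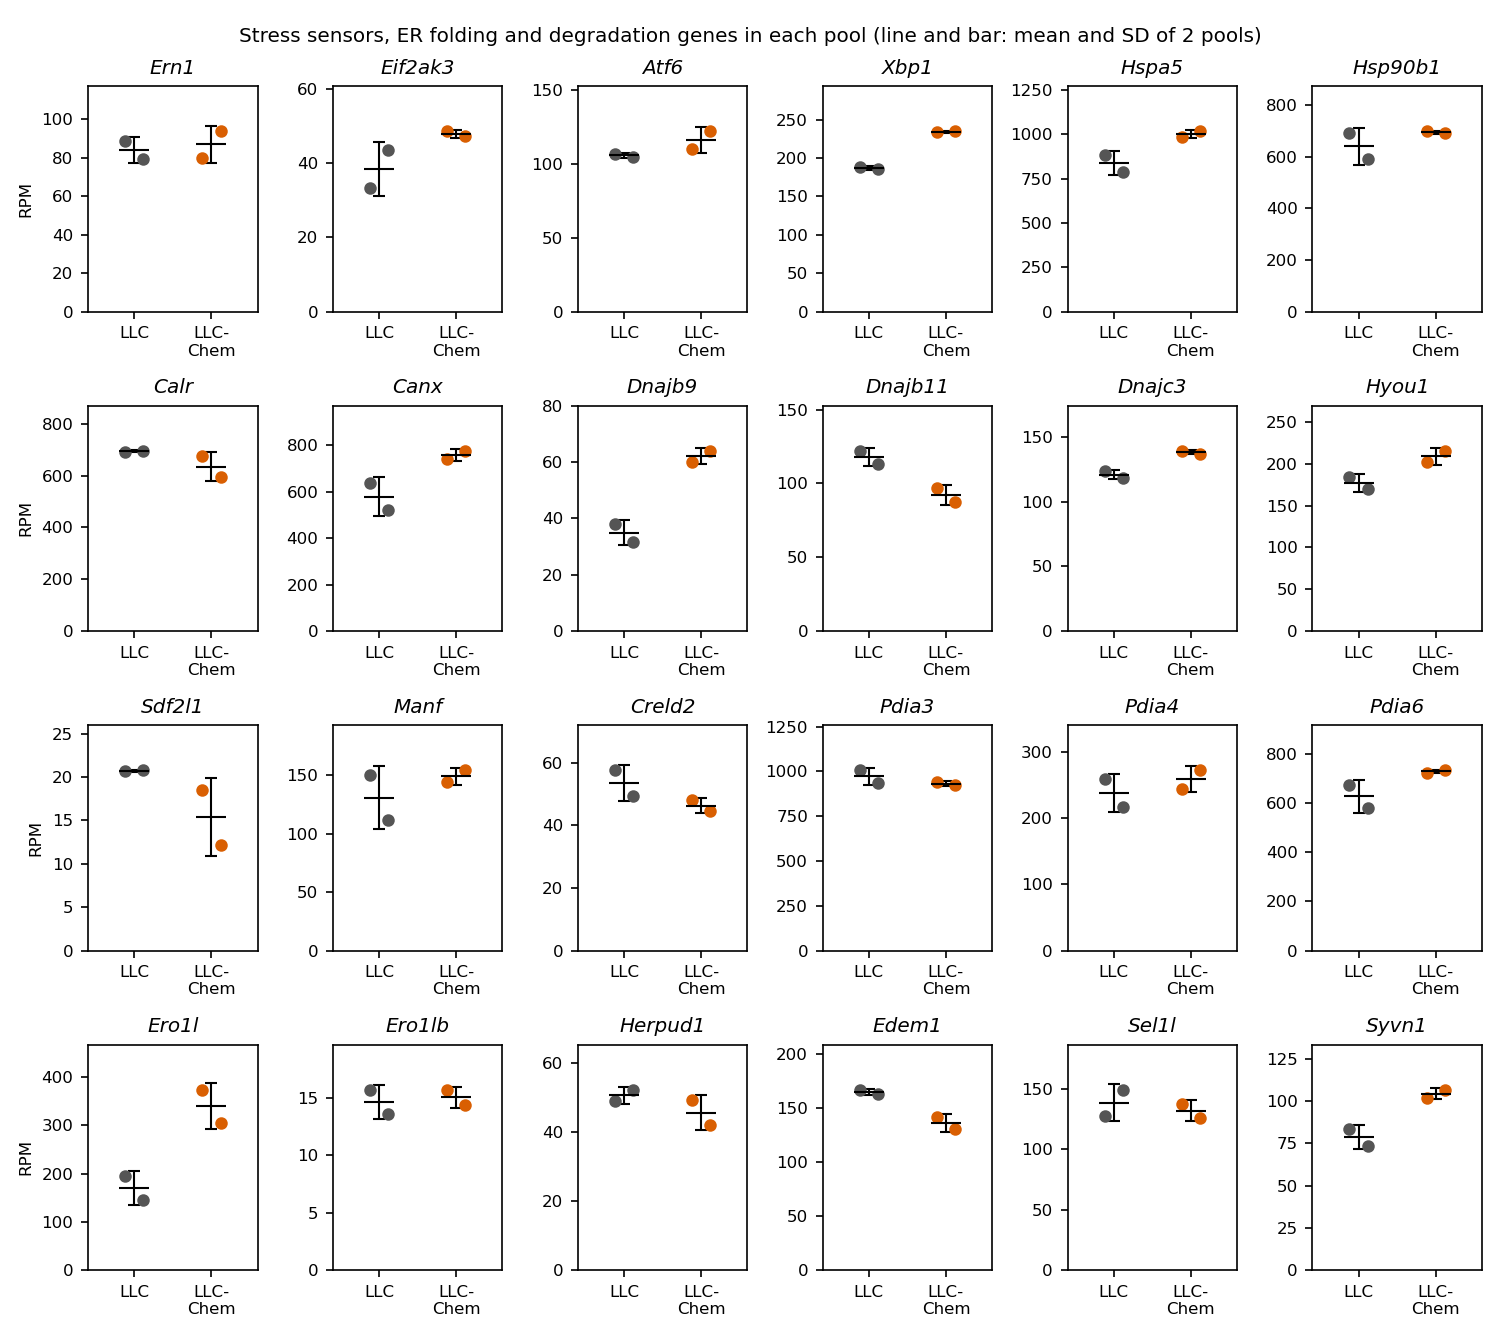
RPM of the 24 genes of stress sensing, ER folding and ER degradation in each pool (points), with the mean and SD of the 2 pools of each group as line and bar, and axes starting at 0. Both LLC-Chem pools lie above both LLC pools for 11 of the 24 genes, beside 33.1% of all genes tested, and below for 5, beside 39.3%. Dnajb9, Ero1l and Syvn1 were called higher, beside 9.54% of all genes, and the 5 were not called by limma.

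The promoters were also searched for elements of the ER stress response. ERSE, which reads CCAAT and CCACG with 9 bases of any kind between them and was searched on both strands, is the site through which ATF6 and XBP1 act together with the CCAAT-binding factor NF-Y. It occurred in 9 of the 40 promoters (22.5%), those of Calr, Canx, Creld2, Dnajc3, Ero1lb, Hsp90b1, Hspa5, Pdia6 and Syvn1, against 39 of all 32851 (0.119%). The list was chosen partly as known targets of XBP1 and ATF6, so this higher share is not a finding. Of the 9 genes with ERSE, Syvn1 rose, beside 9.75% of the tested genes with a promoter called higher. The other 8 were not called, with log2 fold changes from -0.21 for Creld2 to 0.40 for Canx. Of the 9 other tested genes whose promoter held ERSE, 2 (22.2%) were called higher and 1 (11.1%) lower, with a median log2 fold change of 0.35. The shorter ERSE-II, ATTGG and CCACG with 1 base between them, occurred in the promoters of Dnajb11 and Herpud1 and in 0.0365% of all promoters, and the unfolded protein response element TGACGTGG in none of the 40 and 0.676% of all. For the 6 other tested carriers of ERSE-II the median came to -0.01 on the log2 scale, while of the 105 of the unfolded protein response element 15 (14.3%) were called higher and 9 (8.57%) lower, against 9.75% and 13.6% of the tested genes with a promoter. On the reverse strand the last of these shares the letters CCACG with the other ER elements. Among the genes called, Syvn1 is the one ERSE carrier, whereas Ero1l, Dnajb9 and Ddit4 held no match to any of the 4 elements in this window. The elements of Syvn1, of 3 genes that were not called and of Hspa5 are shown with the match in capitals and 20 bases on each side, or 5 for Hspa5.
Syvn1, chr19:6046512-6046570, plus strand: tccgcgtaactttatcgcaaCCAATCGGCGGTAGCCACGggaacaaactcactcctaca
Canx, chr11:50325780-50325838, minus strand: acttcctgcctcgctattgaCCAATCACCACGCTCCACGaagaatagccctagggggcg
Calr, chr8:84847055-84847113, plus strand: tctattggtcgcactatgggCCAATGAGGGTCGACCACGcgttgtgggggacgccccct
Creld2, chr15:88819500-88819558, minus strand: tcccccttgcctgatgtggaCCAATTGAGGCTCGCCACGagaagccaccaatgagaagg
Hspa5, chr2:34772020-34772048, plus strand: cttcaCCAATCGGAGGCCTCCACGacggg

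In Syvn1 the match lies 44 to 26 bases before the start, in Hspa5 65 to 47 bases, in Creld2 126 to 108, in Canx 145 to 127 and in Calr 162 to 144 bases before it. The windows of Syvn1, Canx, Calr and Creld2 lie outside any gene of GENCODE M21, and that of Hspa5 touches an untranslated region. Hsp90b1 held 2 matches. The element was therefore common to chaperones on both sides of 0, since Canx had a positive and Calr and Creld2 a negative difference.

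A further 91 genes of the same pathways, of which 89 were tested, were fitted alongside. Of these 5 rose and 13 fell, again beside 9.54% and 13.5% of all genes. With any 1 pool left out no gene of the whole table was called (0 by limma), so that the loss of these calls says nothing particular to them, and each of the 18 kept its sign. The cytosolic aminoacyl-tRNA synthetases, which charge tRNA with amino acids and include known targets of ATF4, held most of the falls. Of the 20 enzymes 7 fell, 1 rose and 12 were not called. Both LLC-Chem pools lay below both LLC pools for 15 of 20, beside 39.3% of all genes tested, and the median log2 fold change was -0.25 against -0.04 over all genes. Wars, for tryptophan, measured 75.4 and 68 RPM in LLC, and 49.2 and 43 RPM in LLC-Chem (log2 fold change -0.63 ± 0.12 SE, adjusted p = 0.0249). Cars, for cysteine, measured 65.5 and 54.8 RPM in LLC, and 39.98 and 38.2 RPM in LLC-Chem (log2 fold change -0.61, adjusted p = 0.0293). Gars, for glycine, measured 267 and 235 RPM in LLC, and 174 and 158 RPM in LLC-Chem (log2 fold change -0.59, adjusted p = 0.0257). In these 3 enzymes both LLC-Chem pools lay below both LLC pools. Qars, for glutamine, was the one enzyme called higher and measured 175 and 165 RPM in LLC, and 226 and 243 RPM in LLC-Chem (log2 fold change 0.46, adjusted p = 0.0319). Dars, for aspartate, also had both LLC-Chem pools above both LLC pools, without a call (log2 fold change 0.22, adjusted p = 0.172), and the pools of the other 3 enzymes overlapped. Without the trend Wars alone of these 8 calls held, with adjusted p-values from 0.0508 for Lars to 0.0852 for Hars among the other 7. Qars and Dars were singled out after their values were seen.

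**Figure D5:**
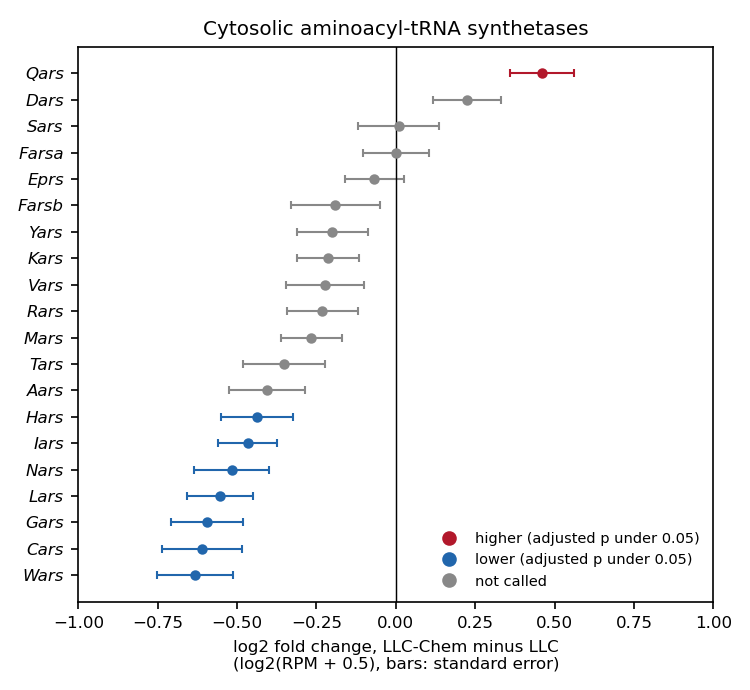
Log2 fold change (LLC-Chem minus LLC, on log2(RPM + 0.5)) of the 20 cytosolic aminoacyl-tRNA synthetases in order of their value, with the standard error as bars. The 7 called lower lie at the lower left, from -0.63 for Wars to -0.44, and Qars at 0.46 is the one called higher.

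Enzymes of folate, proline and serine metabolism outside the 43 genes stood in the same direction, with both LLC-Chem pools below both LLC pools for 6 of 6, beside 39.3% of all genes tested. A single one of the 6 was called, a share near the 13.5% of all genes called lower. That gene, Aldh1l2, the mitochondrial enzyme that burns off one-carbon units, measured 25.7 and 24.8 RPM in LLC, and 14 and 9.79 RPM in LLC-Chem (log2 fold change -1.08 ± 0.20 SE, adjusted p = 0.0233). Of the 12 genes for eIF2 kinases, eIF2, its exchange factor eIF2B and the eIF2 phosphatase, 2 fell, a share near the 13.5% of all genes called lower. Both are eIF2B subunits, and the median log2 fold change of the 12 was -0.27. Eif2b2 measured 37.7 and 38.9 against 29.4 and 27.3 RPM and Eif2b5 101 and 92.4 against 75.3 and 68.2 RPM in LLC and LLC-Chem, with adjusted p-values of 0.0475 and 0.0435. The call of Eif2b2 was lost with TMM scaling (adjusted p = 0.0611) and with edgeR (adjusted p = 0.0622), and both calls were lost with eBayes without trend (adjusted p = 0.0708 for Eif2b2 and 0.0808 for Eif2b5). Hsp90aa1, the inducible cytosolic Hsp90 and the one call among 7 cytosolic heat shock genes by limma, beside 13.5% of all genes called lower, fell and measured 641 and 509 RPM in LLC, and 345 and 302 RPM in LLC-Chem (log2 fold change -0.82 ± 0.16 SE, adjusted p = 0.0246).

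The membrane-bound factors related to ATF6 held the widest differences among the called genes of these lists. Creb3l2, which encodes BBF2H7, a factor known for widening the secretory route of cartilage cells, measured 102 and 109.8 RPM in LLC, and 232 and 265 RPM in LLC-Chem (log2 fold change 1.22 ± 0.11 SE, adjusted p = 0.0093). Creb3l1, which encodes OASIS, a factor known for driving type I collagen in bone-forming cells, measured 46.9 and 70.8 RPM in LLC, and 20.9 and 15.2 RPM in LLC-Chem (log2 fold change -1.66 ± 0.25 SE, adjusted p = 0.0158). The ratio of Creb3l2 to Creb3l1 was 2.18 and 1.55 in LLC, and 11.1 and 17.5 in LLC-Chem, again with a smallest possible exact permutation p of 0.33. This ratio restates the differences given above and is not further evidence. Beside them, the type I collagen genes of the fibroblast list fell, with log2 fold changes of -1.51 for Col1a1 and -1.46 for Col1a2, while Pdgfra of the same list rose (0.72). The call of Pdgfra was lost with edgeR (adjusted p = 0.0555) and without the trend (0.0764). Lum (1.00) and Dcn (0.80) had non-overlapping higher pools and were not called by limma but passed with DESeq2 (adjusted p = 0.00835 and 0.00700), the pools of Col3a1 (0.49) overlapped, and the median of the 6 fibroblast markers was 0.61. The part of fibroblasts in these values was not tested. Mbtps1, the protease that cuts ATF6 and its relatives, rose as well, at 211 and 241 against 307 and 308 RPM in LLC and LLC-Chem (log2 fold change 0.45, adjusted p = 0.0424), a call lost without the trend (0.0761).

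Lists nearer to the ER lumen gave few calls, which stand beside 9.54% of all genes called higher and 13.5% called lower. Among 8 further folding enzymes Prdx4, a peroxiredoxin of the ER that uses the peroxide made by ERO1 oxidases, rose and measured 117 and 117 RPM in LLC, and 206 and 223 RPM in LLC-Chem (log2 fold change 0.87 ± 0.10 SE, adjusted p = 0.0117). Its pools agreed closely within each group. Edem3, a mannosidase of ER degradation, was the one call among 11 tested of 12, at 67.2 and 65 against 87.7 and 95.7 RPM in LLC and LLC-Chem (log2 fold change 0.47, adjusted p = 0.0312), opposite in sign to its relative Edem1. Of 14 translocon and signal peptidase genes Sec11c, a catalytic subunit of the signal peptidase, fell (62.6 and 54.5 against 40.1 and 41.9 RPM, adjusted p = 0.0354). Sec62, a translocon subunit of the same list, singled out after its values were seen, had non-overlapping higher pools and missed the threshold (log2 fold change 0.33, adjusted p = 0.0554), but passed with TMM scaling (0.0384), edgeR (0.0436) and DESeq2 (0.0156). Neither Edem3 nor Sec11c was called without the trend (adjusted p = 0.0625 and 0.0632). The 5 tested of 6 mitochondrial stress genes gave 0 calls by limma, with 1 at an unadjusted p under 0.05, 0 by edgeR and 0 by DESeq2.

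Levels can be compared between genes only per length. Per kilobase of annotated exon, the most abundant of the 43 genes were Pdia3 at 309.6 RPM per kb in LLC and 297 in LLC-Chem, Calr at 241 RPM per kb in LLC and 221 in LLC-Chem, and Hspa5 at 198 RPM per kb in LLC and 237 in LLC-Chem. The least abundant was Chac1, at 0.824 RPM per kb in LLC and 0.229 in LLC-Chem. On this scale Phgdh (56.4 RPM per kb in LLC and 32 in LLC-Chem) and Shmt2 (49.7 RPM per kb in LLC and 31.4 in LLC-Chem) were the most abundant of the genes that fell. Pools of the same group also differed. Pool 1 exceeded pool 2 for 34 of the 43 genes in LLC and for 31 in LLC-Chem, beside the 57.9% and 51.6% of all genes tested. LLC pool 2 in turn held the higher summed level of leukocyte and macrophage markers, and of fibroblast markers, which summed to 23381 and 44289 RPM in LLC, and 32681 and 29632 RPM in LLC-Chem. The part of this difference between the LLC pools in the calls was not tested.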

How the data were processed

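RNA-seq libraries of 2 pools of LLC and 2 pools of LLC-Chem tumors were used. Per the labels, the authors mapped reads to GRCm38.p4 (mm10) with STAR and counted them on genes with HTSeq, and the methods name Ensembl release 84. Versions and the strand setting are not given in the sources used here. The deposited values are RPM for 47729 genes, 1000000 per pool, in whole steps that fit reads scaled to 20000000 and rounded up. In each pool 100% of nonzero values were whole multiples of the step, which does not test the recovery of reads. From the spacing of the values, read totals were fitted, and reads were recovered as rounded estimates.

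The limma package (version 3.58.1, under R 4.3.3, with lmFit and then eBayes with trend, two-sided) compared the groups on log2(RPM + 0.5), which understates fold changes of low genes. All 13694 genes whose mean reached 1 RPM entered this fit, Benjamini-Hochberg adjustment ran over them, and an adjusted p under 0.05 made a call. RPM are not counts, so edgeR 4.0.16 (quasi-likelihood) and DESeq2 1.42.0 on the recovered reads were alternatives, beside other pseudocounts, scalings (TMM, median of ratios), filters, a replicate block, eBayes without trend and leaving out each pool. Scripts were tested on simulated data. P-values rest on the spread between pools, moderated toward that of all genes, and not on the spread between single tumors, mice or clones. Summaries used pandas 2.3.3 and numpy 2.4.6 under Python 3.11.15, and plots matplotlib 3.10.9.

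The 43 genes and all lists were chosen with earlier results of these data known. Each of the 43 could be named, and in every other pathway list up to 3 called genes with the largest absolute log2 fold change. Gene positions and lengths are from GENCODE M21 on GRCm38, which held 47224 of the identifiers, and promoters are from RefSeq (GRCm38.p6), where Ero1l and Ero1lb were matched by synonym.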

Additional observations from a re-analysis of the deposited data

How the results depend on the processing

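The counts of the 43 genes called (4 higher, 7 lower) and of the other 91 pathway genes called (5 higher, 13 lower) stayed within 1.5 times these values under both other pseudocounts, both other scalings, a minimum mean of 5 RPM, edgeR and DESeq2, the last of which also called Xbp1, Canx, Mthfd2 and Trib3. Over all genes, TMM scaling gave 1591 higher and 1610 lower calls beside 1306 and 1848 on RPM, and scaling moved the median log2 fold change by at most 0.04. Leaving out each pool in turn gave 0 calls by limma for all 4 counts each time, with 2578 to 4973 of all genes at an unadjusted p under 0.05, fewest without LLC-Chem pool 2. Testing all genes above 0 in any pool gave 0 calls by limma for all 4 counts (1 of 26260 genes was called), with 7397 genes at an unadjusted p under 0.05, and the cause was not tested. eBayes without trend gave 2 higher and 4 lower of the 43 genes, losing Ddit4, Sesn2, Asns, Phgdh and Syvn1, and 2 higher and 4 lower of the others.

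Replicate numbers did not pair the pools, since deviations of same-numbered pools correlated at -0.14. With the replicate block, 2 of the 43 genes were called higher and 7 lower, and 2 and 6 of the others (all genes 549 and 1064). Under the block Sesn2 (adjusted p = 0.0657), Ddit4 (0.0743) and Syvn1 (0.101) lost their calls, as did Eif2b2 (0.107), Eif2b5 (0.0797), Cars, Hars, Iars, Lars, Nars, Qars, Mbtps1, Sec11c and Edem3 of the others, while the 7 lower calls include Mthfd2 (0.0306), which limma did not call without it. The block also called Gdf15 of the mitochondrial list, named after its values were seen (adjusted p = 0.0403), lower. Of the fibroblast markers, Col1a1 (0.0857), Col1a2 (0.0871) and Pdgfra (0.0658) were not called under the block, and 3 of the 8 leukocyte and macrophage markers were called lower. With the crossed pairing, added after seeing the data, the counts were 4, 7, 5 and 13 (all genes 1579 and 2320).

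Over these alternatives the sign turned only for genes that were not called. Leaving out each pool in turn, the log2 fold change ran from -0.068 to 0.159 for Ern1, -0.438 to 0.059 for Atf4, -0.043 to 0.451 for Ddit3, -0.387 to 0.085 for Cebpb, -0.09 to 0.314 for Cebpg, -0.01 to 0.414 for Manf, -0.002 to 0.247 for Pdia4, -0.06 to 0.14 for Ero1lb and -0.182 to 0.043 for Sel1l. The turn came without LLC pool 1 for Atf4 and Cebpb, without LLC pool 2 for Ern1 (-0.035), Ddit3, Cebpg, Manf, Pdia4, Ero1lb and Sel1l, without LLC-Chem pool 1 for Ero1lb (-0.021) and without LLC-Chem pool 2 for Ern1. With edgeR, Atf5 came to 0.001. Depth was not varied, so its part in these results was not tested.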
